A study of Homo sapiens with 52 samples.

Results

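The genes described here are 10 secreted proteins of the extracellular matrix and of its crosslinking: the matrix glycoproteins FN1, TNC, SPARC, THBS1, THBS2, POSTN and FBN1, the proteoglycan VCAN, and the lysyl oxidases LOX and LOXL2. They were taken by gene name from 78894 genes, and all 10 were found. FN1 was also followed through its 27 transcripts, of 387954 transcripts in all. The study knocked down neuropilin-1 (NRP1), a transmembrane co-receptor for growth factors and semaphorins, in 3 established breast cancer cell lines of the claudin-low type, SUM159PT, MDA-MB-231 and HS578T, and sequenced their polyadenylated RNA. Each line had 6 groups. In siNT, siNRP1#3 and siNRP1#5 the cells received 20 nM of siRNA, non-targeting or directed at NRP1, and RNA was taken 72 h after transfection. In shNT, shNRP1#3 and shNRP1#5 the cells were transduced with a lentivirus for a non-targeting shRNA or an shRNA against NRP1, selected with puromycin and harvested 48 h after seeding. Reagents numbered #3 were aimed at the transmembrane form of NRP1, and those numbered #5 at its transmembrane and soluble forms. The siRNA and the shRNA numbered #5 have the same target sequence. There were 52 samples in 18 groups, with 3 samples in 16 of them and 2 in SUM159PT siNRP1#5 and in HS578T shNRP1#3. The authors state that outlier samples were taken out at the quality control stage. The spread within the smaller groups may therefore be understated, and the effect of the removal on p-values that rest on these groups was not tested. Each group is a single cell line grown alone on plastic, without the stromal cells that make much of a tumour's matrix. The shRNA replicates were consecutive passages of a transduced culture, so that the p-values given measure the spread between these samples and not between independent transductions.

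Fibronectin (FN1) is assembled by cells into fibrils through integrin receptors, and other matrix proteins are laid down on these fibrils. Tenascin-C (TNC), SPARC, the thrombospondins (THBS1, THBS2) and periostin (POSTN) are matricellular proteins, which act less as building material than by changing how cells attach to and signal from the matrix. Fibrillin-1 (FBN1) forms the microfibrils that hold latent TGF-beta, versican (VCAN) is a large hyaluronan-binding proteoglycan, and LOX and LOXL2 are copper-dependent amine oxidases that crosslink collagen and, in the case of LOX, elastin.

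Total expected counts (the reads assigned to genes by the quantifier, which need not be whole) lay between 25310443 and 72003442 per sample, with a median of 44804505. NRP1 was lower in the knockdown group in 12 of 12 comparisons, by a log2 fold change between -4.88 and -0.70, and passed the test in 11. The exception was HS578T shNRP1#3 (log2 fold change -1.59, adjusted p = 0.069, edgeR quasi-likelihood test). Claudin-low cells are named for low claudins, yet CLDN4 reached 62.6 to 226 TPM (a level scaled to a fixed total per sample and corrected for transcript length) in the samples of MDA-MB-231, against at most 27.9 TPM in the others. In MDA-MB-231 CLDN7 was at 10.4 to 61.5 TPM, CLDN3 at 2.87 to 13.4 TPM and CDH1 at 0.02 to 3.33 TPM. The genes enriched in the type were present there, with VIM at 1311 to 3469 TPM and ZEB1 at 5.24 to 19.7 TPM. SNAI1 was at 3.18 to 20.75 TPM and ITGA6 at 29.6 to 123 TPM. RNA of another line in a library was estimated from genes expressed in a single line (28 for SUM159PT, 17 for MDA-MB-231 and 53 for HS578T). An estimate above 1% was found in 10 samples. The highest were 26, 16.7 and 13.4% of MDA-MB-231 RNA in replicates 1, 2 and 3 of HS578T siNRP1#5. Replicate 2 of that group also had an estimate of 5.43% of SUM159PT RNA. In MDA-MB-231 shNRP1#3 replicate 3 the estimate was 1.45% of HS578T and 1.18% of SUM159PT RNA. The others were all 3 libraries of HS578T siNRP1#3 (2.15, 2.98 and 7.17% of MDA-MB-231 RNA), replicate 3 of HS578T siNT (2.01%) and replicates 1 and 2 of SUM159PT shNRP1#5. Calls of members in the knockdown comparisons that rest on these libraries are also given after subtraction of the estimated RNA or without the library. Transcript shares of FN1 and the lists of related genes were not corrected for such RNA.

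The levels of the 10 genes in the cell lines were first compared among the non-targeting samples, 6 per line (3 siNT and 3 shNT). FN1, the fibril-forming glycoprotein, had a lowest, median and highest level of 387.6, 805.1 and 2072 TPM in SUM159PT, 49.55, 155.9 and 288.6 TPM in MDA-MB-231 and 1376, 2416 and 3200 TPM in HS578T. MDA-MB-231 was thus below both other lines in every sample, while the ranges of SUM159PT and HS578T overlapped. In the model of all 52 samples with 18 group means, in which the mean of siNT and shNT was compared between lines, FN1 was higher in HS578T than in MDA-MB-231 by a log2 difference of 4.90 ± 0.27 (SE) (adjusted p = 2.8e-19) and higher in HS578T than in SUM159PT by 1.89 ± 0.24 (adjusted p = 4.64e-09). SPARC, a collagen-binding protein of remodelling tissue, showed an even wider contrast. Its lowest, median and highest levels were 5.2, 8.33 and 23.59 TPM in MDA-MB-231, 926.7, 1313 and 1953 TPM in SUM159PT and 1426, 2704 and 3780 TPM in HS578T. SPARC was the most abundant of the 10 genes per length in SUM159PT and HS578T, with FN1 next, whereas THBS1 led in MDA-MB-231.

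The other matricellular genes did not share a common order of lines. THBS1, an activator of latent TGF-beta, was highest in MDA-MB-231, with a lowest, median and highest level of 183.5, 294.6 and 512.5 TPM against 10.81, 39.69 and 103.5 TPM in SUM159PT and 53.98, 69.42 and 145.3 TPM in HS578T. All 6 MDA-MB-231 samples lay above the samples of both other lines. TNC was highest in SUM159PT (37.29, 74.65 and 208.9 TPM) and lower in MDA-MB-231 (26.46, 27.66 and 33.52 TPM) and HS578T (7.16, 14.05 and 21.23 TPM). None of the TNC ranges overlapped in TPM, but in the count model HS578T and MDA-MB-231 did not differ beyond their spread (log2 difference -0.16 ± 0.33, adjusted p = 0.698), a scale that does not correct for transcript length. POSTN, a fasciclin-domain protein of fibroblasts, was at 7.86, 34.52 and 137.2 TPM in HS578T, at 0.06, 0.72 and 3.46 TPM in SUM159PT and at 0, 0.03 and 0.44 TPM in MDA-MB-231. THBS2 was near the limit of detection in all lines, with a highest level of 0.88 TPM and between 0 and 101 expected counts per sample.

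FBN1 was at 42.79, 56.39 and 76.01 TPM in HS578T and at similar, overlapping levels in SUM159PT (6.09, 10.79 and 19.49 TPM) and MDA-MB-231 (6.95, 9.63 and 13.1 TPM). VCAN had 23.94, 30.3 and 48.86 TPM in HS578T and 11.7, 28.99 and 52.88 TPM in SUM159PT, and was almost undetected in MDA-MB-231 (0.02, 0.055 and 0.2 TPM). The lysyl oxidases differed in kind. LOX ran from 0.28, 0.875 and 4.58 TPM in SUM159PT through 12.34, 20.3 and 25.09 TPM in MDA-MB-231 to 44.19, 77.83 and 97.01 TPM in HS578T, with no overlap between lines. LOXL2 was at 117.2, 132.9 and 186.5 TPM in SUM159PT, at 163.1, 207.2 and 242.4 TPM in MDA-MB-231 and at 143.6, 185.2 and 343.2 TPM in HS578T, so that all ranges overlapped.

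**Figure D1:**
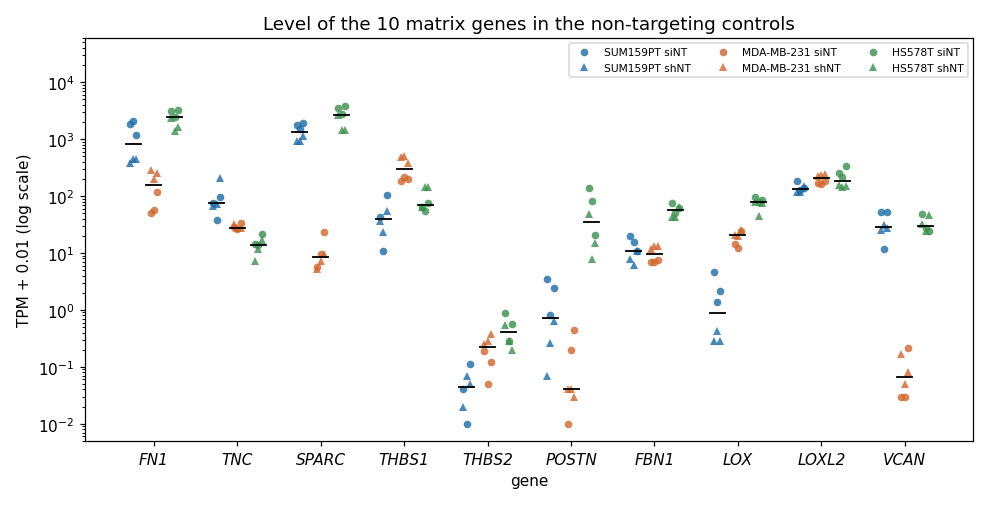
Levels of the 10 matrix genes in the non-targeting samples (siNT and shNT, 6 per cell line), in TPM on a log axis. Each point is a sample. MDA-MB-231 lies below the other lines for FN1, SPARC and VCAN and above them for THBS1, while LOXL2 overlaps in all 3 lines.

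Between SUM159PT and MDA-MB-231, 8 of 10 genes passed the test, where 59.4% of all 23416 genes tested did. Between HS578T and MDA-MB-231, 9 of 10 passed (70.2% of all genes), and between HS578T and SUM159PT also 9 of 10 (63.5% of all genes). The genes that did not pass were THBS2 (log2 difference -1.16 ± 0.54, adjusted p = 0.0601) and LOXL2 (-0.14 ± 0.17, adjusted p = 0.481) for SUM159PT against MDA-MB-231, TNC for HS578T against MDA-MB-231, and VCAN for HS578T against SUM159PT (0.52 ± 0.43, adjusted p = 0.292). The largest differences were those of POSTN (10.36 ± 1.02) and VCAN (9.82 ± 0.66) between HS578T and MDA-MB-231 and of VCAN (9.30 ± 0.65) between SUM159PT and MDA-MB-231. For FBN1, SUM159PT was above MDA-MB-231 by 0.68 ± 0.18 (adjusted p = 0.00171), but with the shNT samples alone the difference was -0.12 (adjusted p = 0.749), so its direction depended on which control was used. Also THBS1 in HS578T against MDA-MB-231 (-1.04 ± 0.35, adjusted p = 0.00871) did not pass with the siNT samples alone (adjusted p = 0.127), nor did THBS1 in HS578T against SUM159PT (0.238). With the shNT samples alone the calls of THBS2 (0.119) and LOXL2 (0.436) in HS578T against MDA-MB-231 and of SPARC in HS578T against SUM159PT (0.0534) were lost. Without replicate number 1 of all groups FBN1 (0.0587) and THBS1 in HS578T against MDA-MB-231 (0.107) did not pass, and without number 2 SPARC in HS578T against SUM159PT (0.0643).

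Each knockdown was then compared with the non-targeting control of its own kind. Of the 120 tests (10 genes, 12 comparisons), 16 passed, with 6 higher and 10 lower in the knockdown, where 11.3% of the tests of all genes passed. In 15 of these 16 the samples of the compared groups did not overlap, as in 94.6% of the called tests of all genes. Without regard to the test, the groups did not overlap in 35 of the 120 member tests and in 32% of the tests of all genes. MDA-MB-231 had 9 calls in 40 tests (19.8% of the tests of all genes in that line), SUM159PT had 5 in 40 (8.47%) and HS578T had 2 in 40 (6.07%), the same order of lines as for all genes. In 5 of the 12 comparisons no member passed. No gene passed in all 3 lines. THBS1 and FBN1 passed in 3 comparisons each, FN1 and TNC in 2, and the other genes in 1.

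**Figure D2:**
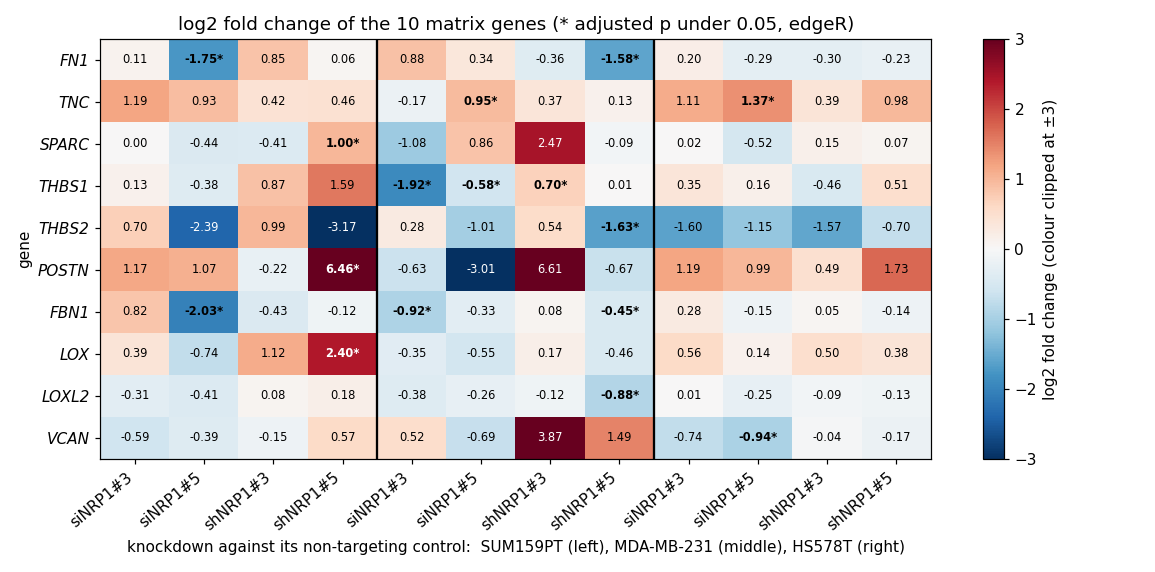
Log2 fold changes of the 10 matrix genes in the 12 comparisons of an NRP1 knockdown with its non-targeting control, from the edgeR model of each cell line. Colour gives the log2 fold change and marks show an adjusted p under the threshold. Each matrix gene passes in at most 3 comparisons.

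In SUM159PT, the siRNA numbered #5 lowered FN1 and FBN1. FN1 was at 5858, 4111 and 3431 CPM (expected counts scaled to a common library size by the TMM method) in siNT and at 1173 and 1457 CPM in siNRP1#5. Both knockdown samples were below all controls, with a log2 fold change of -1.75 ± 0.36 (adjusted p = 0.00448). FBN1 was at 77.7, 50.4 and 37.0 CPM in siNT and at 13.2 and 13.6 CPM in siNRP1#5, again without overlap (log2 fold change -2.03 ± 0.40, adjusted p = 0.00362). These were 2 of 10 members, where 17.9% of all 20067 genes tested passed. Neither passed when only the siNT and siNRP1#5 samples were fitted (adjusted p = 0.0697 for FN1 and 0.0681 for FBN1), with log2 fold changes of -1.76 and -2.03. The siRNA numbered #3 gave no such values. FN1 was at 3740, 6699 and 3945 CPM, overlapping the controls (log2 fold change 0.11 ± 0.30, adjusted p = 0.86), and FBN1 was at 105, 96.8 and 89.2 CPM, above all siNT samples but not past the test (0.82 ± 0.33, adjusted p = 0.137).

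In siNRP1#3 of SUM159PT no member passed (8.66% of all genes did), 1 member had an unadjusted p under 0.05, and DESeq2 and limma on log2 TPM also gave 0. TNC was at 314, 137 and 391.9 CPM in siNT and at 572, 416 and 928 CPM in siNRP1#3, all knockdown samples above all controls, with a log2 fold change of 1.19 ± 0.63 (adjusted p = 0.255). The replicate numbers paired the samples in this comparison, and with the number as a block the change was 1.22 (adjusted p = 0.00553).

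The shRNA numbered #5 raised POSTN, LOX and SPARC in SUM159PT. POSTN was at 0.141, 0.576 and 1.42 CPM in shNT and at 91.4, 51.2 and 43.97 CPM in shNRP1#5, a log2 fold change of 6.46 ± 0.77 (adjusted p = 0.000167). The gene was thus close to undetected in the controls and clearly expressed in every knockdown sample. LOX was at 0.786, 1.29 and 0.955 CPM in shNT and at 6.71, 5.76 and 3.16 CPM in shNRP1#5, without overlap (2.40 ± 0.40, adjusted p = 0.00198). SPARC was at 786, 760 and 983 CPM in shNT and at 1586, 1838 and 1516 CPM in shNRP1#5, also without overlap (1.00 ± 0.21, adjusted p = 0.0102). It did not pass without shNRP1#5 replicate 2 (adjusted p = 0.0546), shNT replicate 1 (0.0584) or shNT replicate 2 (0.0544). POSTN and LOX passed under every alternative tried. These were 3 of 10 members, with 5.94% of all genes passing. In 2 of the shNRP1#5 samples, replicates 1 and 2, the estimate of MDA-MB-231 RNA was 1.03 and 1.53%. By these estimates RNA of other lines held 11.6, 16.2 and 9.88% of the LOX value in shNRP1#5 and 39.3, 22.3 and 19.3% of it in shNT. After subtraction the changes were 6.57 for POSTN (adjusted p = 0.000178), 2.64 for LOX (0.00223) and 1.02 for SPARC (0.00947).

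The other shRNA, numbered #3, gave 0 members past the test in SUM159PT, where 1.4% of all genes passed. Of the members, 2 had an unadjusted p under 0.05, DESeq2 called 0 and limma on log2 TPM called 1. POSTN was at 0.632, 0.686 and 0.517 CPM, within the shNT range, and LOX at 2.11, 2.69 and 1.74 CPM, above it (log2 fold change 1.12 ± 0.40, adjusted p = 0.218). FN1 was at 1855, 2364 and 2803 CPM in shNRP1#3 against 1083, 1397 and 1437 CPM in shNT, without overlap (0.85 ± 0.30, adjusted p = 0.222).

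SPARC, POSTN and LOX also differed between the non-targeting controls of SUM159PT. SPARC was at 1545, 1712 and 1663 CPM in siNT, near the level of shNRP1#5, and at 1605, 1561 and 1758 CPM in siNRP1#3. It was lower in shNRP1#3 (671, 577 and 638 CPM), below every shNT sample (log2 fold change -0.41 ± 0.21, adjusted p = 0.448), and siNRP1#5 had a sample at 786 CPM and the other at 1616 CPM. POSTN was at 8.26, 1.51 and 5.37 CPM in siNT and LOX at 14.7, 5.39 and 6.54 CPM. In shNT against siNT, 4 of 10 members passed (14.4% of all genes), all lower in shNT: FN1 by a log2 fold change of -1.80 ± 0.31 (adjusted p = 0.0038), SPARC by -0.99 ± 0.21 (adjusted p = 0.00993), POSTN by -2.83 ± 0.67 (adjusted p = 0.0153) and LOX by -3.15 ± 0.41 (adjusted p = 0.00135). POSTN did not pass without shNT replicate 1 (adjusted p = 0.0514) or siNT replicate 1 (0.0631). Delivery, selection and time in culture all differ between these controls and cannot be told apart.

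**Figure D3:**
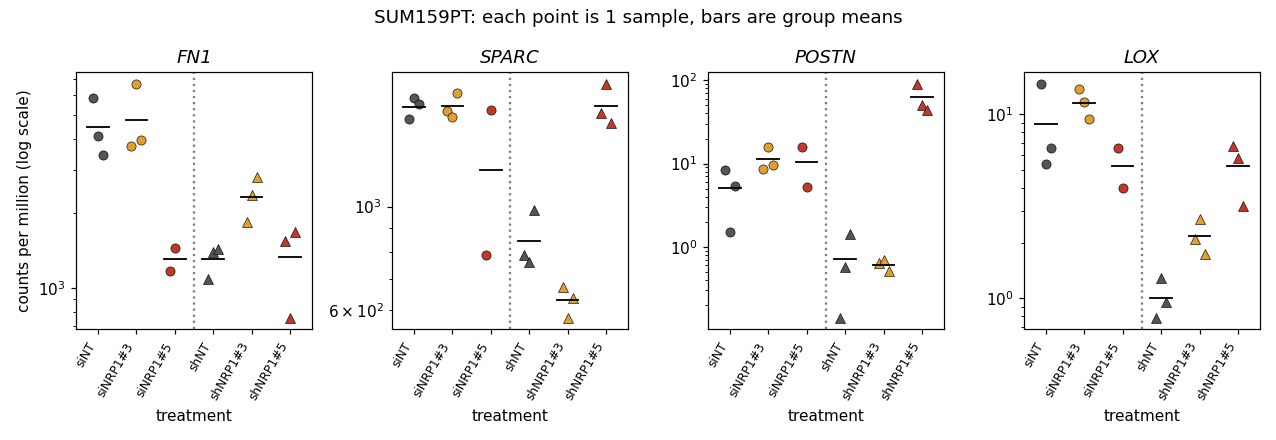
FN1, SPARC, POSTN and LOX in the 17 SUM159PT samples, in CPM on a log axis, by group; each point is a sample. FN1 is lowest in siNRP1#5 among the siRNA groups, and POSTN is at 43.97 CPM or above in shNRP1#5 and at 15.7 CPM or below elsewhere.

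Because the siRNA and the shRNA numbered #5 share a target sequence, their responses were set against each other by an interaction term (the siNRP1#5 change minus the shNRP1#5 change). They did not lower NRP1 to the same level. In SUM159PT mean NRP1 was 207.3 CPM in siNT and 10.33 CPM in siNRP1#5, against 234.1 CPM in shNT and 46.47 CPM in shNRP1#5. In SUM159PT the term passed for 4 of 10 members (2.51% of all genes). It was -1.81 ± 0.46 for FN1 (adjusted p = 0.0477), -1.44 ± 0.32 for SPARC (adjusted p = 0.0314), -5.39 ± 1.02 for POSTN and -3.14 ± 0.59 for LOX (both adjusted p = 0.0202). For FN1 the siRNA lowered the gene and the shRNA left it near its control (0.06 ± 0.30, adjusted p = 0.952). For the other genes the shRNA change was the larger: the siRNA changes were -0.44 ± 0.24 for SPARC, 1.07 ± 0.67 for POSTN and -0.74 ± 0.43 for LOX, none past the test. Mean FN1 was alike in siNRP1#5 (1315 CPM) and shNRP1#5 (1328 CPM), while siNT (4467 CPM) and shNT (1306 CPM) differed. Mean LOX was also alike in siNRP1#5 (5.25 CPM) and shNRP1#5 (5.21 CPM), against 8.87 CPM in siNT and 1.01 CPM in shNT. The siNRP1#5 and shNRP1#5 means were further apart for POSTN (10.45 and 62.18 CPM) and SPARC (1201 and 1647 CPM). The FN1 term did not pass when any of 8 single libraries was left out (adjusted p from 0.0559 to 0.115), and the SPARC term for any of 6 (0.055 to 0.0856). The LOX term did not pass without shNT replicate 1 (0.0589).

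Promoter sequence is shown for FN1, SPARC and POSTN, which were lower together in shNT of SUM159PT. These are the 250 bases before the transcription start that RefSeq gives on GRCh38.p14, 5′ to 3′ on the gene's strand, and capitals mark matches to 6 short motifs searched on both strands. FN1 lies at chr2:215436069-215436318, SPARC at chr5:151686916-151687165 and POSTN at chr13:37598769-37599018, all on the minus strand.
FN1: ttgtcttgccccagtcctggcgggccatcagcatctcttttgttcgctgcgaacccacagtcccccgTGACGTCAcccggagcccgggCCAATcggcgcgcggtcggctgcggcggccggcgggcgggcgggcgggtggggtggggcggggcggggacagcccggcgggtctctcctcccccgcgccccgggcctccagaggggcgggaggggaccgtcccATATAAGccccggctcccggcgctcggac
SPARC: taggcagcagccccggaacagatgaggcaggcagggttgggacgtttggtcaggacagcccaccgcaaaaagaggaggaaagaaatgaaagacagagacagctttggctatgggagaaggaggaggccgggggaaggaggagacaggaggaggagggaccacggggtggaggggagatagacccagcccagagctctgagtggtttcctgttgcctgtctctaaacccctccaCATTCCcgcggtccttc
POSTN: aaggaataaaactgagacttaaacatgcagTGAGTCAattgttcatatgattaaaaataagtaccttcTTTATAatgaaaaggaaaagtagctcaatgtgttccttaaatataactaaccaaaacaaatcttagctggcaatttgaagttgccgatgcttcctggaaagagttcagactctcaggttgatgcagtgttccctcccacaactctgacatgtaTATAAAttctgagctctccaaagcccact

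The FN1 window holds a TATA variant (ATATAAG) starting 29 bases before the start site, a CCAAT box (CCAAT) at 162 and a cAMP response element (TGACGTCA) at 183 bases before it. The POSTN window holds TATA boxes (TATAAA) 29 and 182 bases and an AP-1 site (TGANTCA) 220 bases before the start, and the SPARC window a TEAD core (GGAATG, on the other strand) at 17. LOX, with 3 RefSeq entries, has a CCAAT box 109 bases before the most upstream of them. Over 35116 RefSeq promoter windows of the same length the shares with a match were 10.7% for the TATA box, 1.73% for the TATA variant, 32.0% for the CCAAT box, 1.65% for the cAMP response element, 6.57% for the AP-1 site and 11.9% for the TEAD core. No motif was found in all 4 windows. A match describes the letters in the window and says nothing of a factor's binding.

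In MDA-MB-231, the siRNAs lowered THBS1. With siNRP1#3, it was at 544, 737 and 685 CPM in siNT and at 129, 178 and 204 CPM in the knockdown, a log2 fold change of -1.92 ± 0.17 (adjusted p = 3.77e-07). All 3 knockdown samples were below every sample of any other group of the line. FBN1 was at 19.1, 19.5 and 20.9 CPM in siNT and at 9.53, 9.08 and 12.4 CPM in siNRP1#3, without overlap (-0.92 ± 0.15, adjusted p = 0.000197). Both passed under every alternative tried, and they were 2 of 10 members, where 25.7% of all genes passed. FN1 did not pass, at 117, 122 and 241 CPM in siNT and 236, 252 and 378 CPM in siNRP1#3, with overlap. In other edgeR fits it was higher and passed. These were subtraction of other-line RNA (1.00, adjusted p = 0.0281), no siNT replicate 3 (1.29, 0.0143) and the replicate number as a block (0.91, 0.0263).

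The siRNA numbered #5 moved THBS1 less, while it left less NRP1. Mean NRP1 was 73.78 CPM in siNT, 44.75 CPM in siNRP1#3 and 2.45 CPM in siNRP1#5. With siNRP1#5, THBS1 was at 466, 394 and 437 CPM, below all siNT samples (log2 fold change -0.58 ± 0.17, adjusted p = 0.0134). The call was lost without siNRP1#5 replicate 2 (adjusted p = 0.0529) or siNT replicate 2 (0.0594), and with the compared groups alone (0.0539). TNC, an adhesion-modulating glycoprotein of wounds and tumour stroma, was at 83.4, 89.6 and 106 CPM in siNT and at 162, 165 and 205 CPM in siNRP1#5. It rose by 0.95 ± 0.17 (adjusted p = 0.000258), without overlap, but not in siNRP1#3, where it was at 74.4, 65.4 and 104 CPM (-0.17 ± 0.17, adjusted p = 0.479). These were again 2 of 10 members, with 29.4% of all genes passing. Limma on log2 TPM called 6, with THBS2, FBN1, LOX and LOXL2 added, all lower in the knockdown. LOX had a change of -0.55 ± 0.26 (adjusted p = 0.133), and -0.54 (adjusted p = 0.0323) with the replicate number as a block, which paired the samples in this comparison.

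With shNRP1#5, FN1, THBS2, FBN1 and LOXL2 fell in MDA-MB-231, 4 of 10 members against 20.7% of all genes. FN1 was at 677, 464 and 550 CPM in shNT and at 156, 242 and 165 CPM in shNRP1#5 (log2 fold change -1.58 ± 0.35, adjusted p = 0.00583). LOXL2 was at 430, 431 and 444 CPM in shNT and at 251, 254 and 203 CPM in shNRP1#5 (-0.88 ± 0.17, adjusted p = 0.00151). In both genes the groups did not overlap, and in LOXL2 the knockdown was the only one of the 12 in which it passed. THBS2, at 36, 30 and 60 expected counts in shNT and 18, 11 and 12 in shNRP1#5, was measured on few reads (-1.63 ± 0.39, adjusted p = 0.00655). FBN1 was at 37.9, 38.5 and 34.5 CPM in shNT and at 26.4, 31.3 and 23.3 CPM in shNRP1#5 (-0.45 ± 0.15, adjusted p = 0.0365). The FBN1 call was lost without shNRP1#5 replicate 1 (adjusted p = 0.0994) or 3 (0.171) and without shNT replicate 1 (0.0905), 2 (0.111) or 3 (0.0625), while the other 3 passed under every alternative tried.

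**Figure D4:**
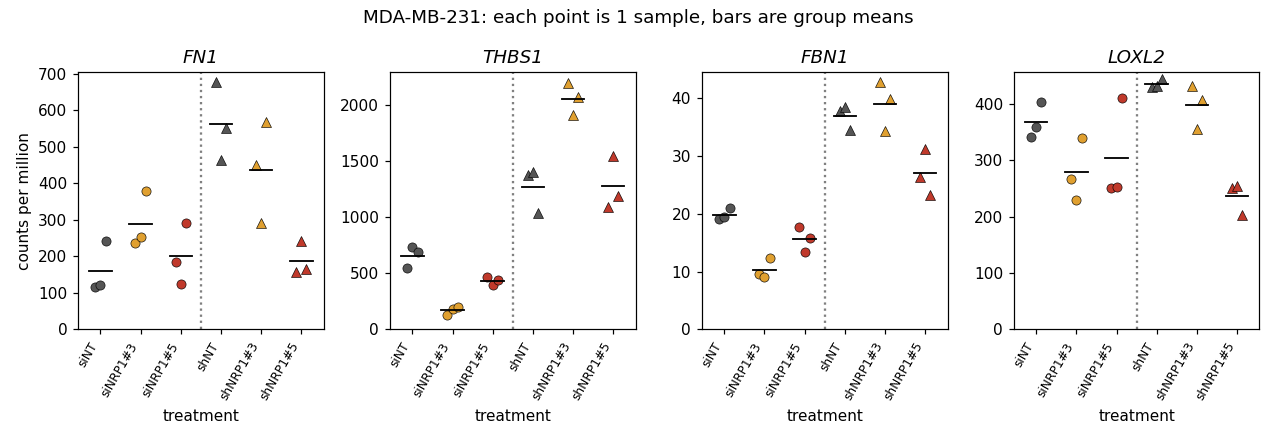
FN1, THBS1, FBN1 and LOXL2 in the 18 MDA-MB-231 samples, in CPM on linear axes from 0, by group; each point is a sample. THBS1 is lowest in siNRP1#3 (129 to 204 CPM), and LOXL2 and FN1 in shNRP1#5 lie below all 3 shNT samples.

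With shNRP1#3, THBS1 was at 1377, 1397 and 1037 CPM in shNT and at 2190, 1910 and 2067 CPM in the knockdown, the opposite direction to the siRNAs (log2 fold change 0.70 ± 0.17, adjusted p = 0.0229). The groups did not overlap, but the call was lost with limma on log2 TPM (adjusted p = 0.103) and without shNRP1#3 replicate 1 (0.102) or 3 (0.0653) or shNT replicate 2 (0.053) or 3 (0.14). After subtraction of other-line RNA it was 0.72 (0.0201). It was the only member of 10 to pass, where 3.65% of all genes did. DESeq2 called 3 members, with POSTN (adjusted p = 0.0143) and VCAN (0.0109) added, and limma on log2 TPM called 0. SPARC, VCAN and POSTN, which MDA-MB-231 hardly expresses, were highest in replicate 3, and SPARC and VCAN were above all shNT samples in replicate 2 as well. SPARC was at 3.38, 5.36 and 6.89 CPM in shNT and at 0.998, 14.5 and 72 CPM in shNRP1#3 (2.47 ± 0.97, adjusted p = 0.207), and VCAN at 0.261, 0.167 and 0.137 CPM against 0.187, 1.07 and 7.01 CPM (3.87 ± 1.02, adjusted p = 0.0506). POSTN was at 0.0163, 0.0167 and 0.0411 CPM in shNT and at 0, 0.0447 and 8.09 CPM in shNRP1#3 (6.61 ± 1.91, adjusted p = 0.0827). In that library RNA of the other lines, at the shares given above, would amount to 41.8 of the 72 CPM of SPARC, 5.05 of the 7.01 CPM of VCAN and 1.06 of the 8.09 CPM of POSTN. Without it the changes were 0.60 for SPARC (adjusted p = 0.835), 1.83 for VCAN (0.31) and 0.17 for POSTN (0.981).

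The non-targeting controls of MDA-MB-231 also differed, and for FN1 in the opposite direction to SUM159PT. FN1 was at 117, 122 and 241 CPM in siNT, below every shNT sample, and rose in shNT by 1.79 ± 0.35 (adjusted p = 0.00249). By the estimates RNA of other lines held 46.2 of the 241 CPM in siNT replicate 3, where HS578T RNA had a share of 0.427%. THBS1 (0.93 ± 0.17, adjusted p = 0.000776), THBS2 (2.27 ± 0.43, adjusted p = 0.00108) and FBN1 (0.87 ± 0.15, adjusted p = 0.000463) were also higher in shNT, 4 of 10 members against 20.6% of all genes. The shNRP1#5 level of FN1 was therefore close to that of siNT. The interaction term of the #5 reagents passed for FN1 (1.92 ± 0.49, adjusted p = 0.0106), with a siRNA change of 0.34 ± 0.34 and 185, 125 and 291 CPM in siNRP1#5, and for TNC (0.83 ± 0.23, adjusted p = 0.015), with an shRNA change of 0.13 ± 0.16. These were 2 of 10 members, where 23.7% of all genes passed. Mean NRP1 was 73.78 CPM in siNT and 2.45 CPM in siNRP1#5, against 176.7 CPM in shNT and 84.91 CPM in shNRP1#5. The TNC term did not pass without shNRP1#5 replicate 3 (adjusted p = 0.051) or with limma on log2 TPM (0.0685).

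In HS578T, the line with the highest median levels of FN1, SPARC, POSTN, FBN1 and LOX, few of the genes passed. With siNRP1#5, 2 of 10 did, where 18.7% of all genes passed. TNC was at 79.3, 82.5 and 129 CPM in siNT and at 201, 183 and 368 CPM in siNRP1#5, without overlap (log2 fold change 1.37 ± 0.37, adjusted p = 0.018). VCAN was at 296, 191 and 159 CPM in siNT and at 62.3, 111 and 164 CPM in siNRP1#5, where the highest knockdown sample was above the lowest control (-0.94 ± 0.31, adjusted p = 0.0436). These are the 3 libraries with an estimate of 13.4 to 26% of MDA-MB-231 RNA, a line with almost no VCAN. Replicate 2 also had an estimate of 5.43% of RNA of SUM159PT, the line with the highest TNC. After subtraction of the estimated RNA of other lines VCAN was at -0.65 (adjusted p = 0.146) and TNC at 1.58 (adjusted p = 0.0143). TNC did not pass without siNRP1#5 replicate 3 (adjusted p = 0.103), siNT replicate 1 (0.0618) or siNT replicate 2 (0.0766), and VCAN without siNRP1#5 replicate 1 (0.154) or 2 (0.114) or siNT replicate 1 (0.177) or 2 (0.0722), nor with limma on log2 TPM (0.148) or the compared groups alone (0.0569).

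With siNRP1#3, TNC was at 190, 140 and 296 CPM in HS578T, above all siNT samples, with a log2 fold change of 1.11 ± 0.37 (adjusted p = 0.1). No member passed, where 4.65% of all genes did, although 4 members had an unadjusted p under 0.05 and DESeq2 called TNC (adjusted p = 0.0413) and limma on log2 TPM called LOX (0.0308). After subtraction of other-line RNA the TNC change was 1.17 (adjusted p = 0.113), and without siNT replicate 3 it was 1.37 (0.0996). The shRNAs gave 0 of 10 in shNRP1#3 (0.0356% of all genes) and 0 of 10 in shNRP1#5 (0.946% of all genes), with 1 and 2 members at an unadjusted p under 0.05 and 0 by DESeq2 or limma. TNC was at 42.5, 67.5 and 94.5 CPM in shNT, at 108 and 75.4 CPM in shNRP1#3 and at 85.5, 164 and 159 CPM in shNRP1#5, with overlap in both. POSTN spread widely within groups, at 384, 246 and 65.8 CPM in siNT and 153, 25.3 and 38.1 CPM in shNT. SPARC was at 4094, 3937 and 5074 CPM in siNT and 3413, 1618 and 1558 CPM in shNT. It fell in shNT (log2 fold change -0.98 ± 0.33, adjusted p = 0.0454), 1 of 10 members against 17.9% of all genes. That call was lost with DESeq2-type size factors (adjusted p = 0.0546), after subtraction of other-line RNA (0.0603) and without shNT replicate 2 or 3 or any siNT replicate (0.0824 to 0.177). The interaction term of the #5 reagents passed for 0 of 10 members in HS578T, where 0.854% of all genes passed, with 0 at an unadjusted p under 0.05 and 0 by DESeq2 or limma.

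Whether the 3 lines answered a reagent in the same way was tested for each gene by an F test in the model of all samples. For siNRP1#3, 1 of 10 members passed (3.42% of all genes). This was FBN1 (adjusted p = 0.00875), whose log2 fold changes were 0.82 (SUM159PT), -0.92 (MDA-MB-231) and 0.28 (HS578T). For siNRP1#5, 2 of 10 passed (18.2% of all genes), namely FN1 (adjusted p = 0.0069; -1.75, 0.34 and -0.29) and FBN1 (adjusted p = 0.00116; -2.03, -0.33 and -0.15). For shNRP1#5, LOX passed (adjusted p = 0.000379; 2.40, -0.46 and 0.38), 1 of 10 against 3.81% of all genes. For shNRP1#3 no member passed, where 0.747% of all genes did, 5 members had an unadjusted p under 0.05 and DESeq2 called 2. After subtraction of other-line RNA the calls of FBN1, FN1 and LOX in these F tests held. SPARC with siNRP1#5 then passed as well (adjusted p = 0.0262). Leaving out all samples of a replicate number ended the calls of FBN1 for siNRP1#3 (adjusted p = 0.15 without number 1 and 0.269 without number 2), FN1 (0.0904 and 0.0773), FBN1 for siNRP1#5 (0.0503 without number 2) and LOX (0.0739 without number 1).

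FN1 was next followed through its transcripts. The gene lies on the minus strand at chr2:215360440-215436073 (GRCh38). Its alternative EDA exon, at chr2:215380811-215381080, is exon 33 of the 46 exons of the transcript FN1-203 and adds a fibronectin repeat that plasma fibronectin of the liver lacks. The exon is printed in capitals between 12 bases of each neighbouring exon, 5′ to 3′, because its presence separates the FN1 transcripts compared here.
FN1 EDA exon: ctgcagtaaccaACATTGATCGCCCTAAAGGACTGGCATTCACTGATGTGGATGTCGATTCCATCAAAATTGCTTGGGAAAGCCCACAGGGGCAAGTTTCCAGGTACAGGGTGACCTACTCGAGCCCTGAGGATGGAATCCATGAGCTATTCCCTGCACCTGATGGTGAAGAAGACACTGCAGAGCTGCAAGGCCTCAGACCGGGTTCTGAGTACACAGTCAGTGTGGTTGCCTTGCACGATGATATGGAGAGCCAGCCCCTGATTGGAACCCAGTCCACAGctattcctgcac

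The deposited isoform percent is a transcript's share of its gene's TPM. The transcripts with the highest mean share over all samples were FN1-213 (21 exons, 16.5%), FN1-215 (a retained-intron transcript of 571 bases, 15.5%) and FN1-212 (46 exons with EDA, 11.8%). Among the non-targeting samples FN1-212 had 2.64 to 4.38% in SUM159PT, 14.2 to 21.5% in MDA-MB-231 and 13.4 to 15.7% in HS578T, so that SUM159PT stood below both lines in every sample. Of the TPM of full-length FN1 transcripts, those with the EDA exon held 34.1, 43.0 and 61.6% (lowest, median and highest) in SUM159PT, 65.5, 72.6 and 77.5% in MDA-MB-231 and 67.7, 71.4 and 75.7% in HS578T. Transcripts with the other alternative repeat, EDB (at chr2:215392931-215393203), held 29.5, 37.1 and 41.2%, 10.1, 12.9 and 19.2%, and 23.4, 31.3 and 34.1% in the same order of lines. MDA-MB-231 was thus high in EDA and low in EDB, and SUM159PT the reverse. RSEM assigns reads shared between transcripts by a model, so these shares are estimates.

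The share of the 3 transcripts was compared between knockdown and control by exact permutation of the labels within lines (two-sided, 12 tests, smallest possible p 0.00025). FN1-213 was higher in shNRP1#3 by 3.33 percentage points, by 3.42 points for SUM159PT, 3.24 for MDA-MB-231 and 3.33 for HS578T, and 8 of 8 knockdown samples were above the mean of their controls (exact permutation p = 0.00075, adjusted p = 0.009). In MDA-MB-231 shNRP1#3 replicate 3 RNA of other lines was estimated at 21.9% of the FN1 value. The mean FN1-213 share in shNT was 9.91% in MDA-MB-231, 17.48% in SUM159PT and 12.35% in HS578T. Without replicate number 3 in all lines the FN1-213 difference was 2.88 points. FN1-215 was lower in siNRP1#3 by 3.08 points (9 of 9 samples), and FN1-212 was higher in siNRP1#3 by 2.04 points (9 of 9) and lower in siNRP1#5 by 1.91 points (7 of 8), each with an adjusted exact permutation p of 0.0488. FN1-212 in shNRP1#5 did not pass (adjusted exact permutation p = 0.0708). When shares of expected counts replaced those of TPM, the FN1-213 call held (4.17 points, adjusted exact permutation p = 0.021) and the other 3 did not. Without a replicate number the FN1-213 difference was 2.88 to 4.10 points and within replicate numbers 3.32, designs in which a single result cannot pass 12 tests (smallest adjusted p 0.111 and 0.0938). The other 3 kept their sign without a replicate number. FN1-215 in siNRP1#3 ran from -4.38 to -1.99 points, and FN1-212 from 1.31 to 2.52 in siNRP1#3 and -2.37 to -1.25 in siNRP1#5. Within replicate numbers the siNRP1#3 results did not pass (adjusted exact permutation p = 0.0703 for FN1-215 and 0.0938 for FN1-212), where 0.0469 was possible. In SUM159PT shNRP1#5 the EDA share ran from 47.7 to 92.8%, a wider span than that between any 2 group means of that line. Full-length transcripts held 5.87 to 43.9% of FN1 TPM in that group and 8.17 to 34.0% in SUM159PT siNT, which limits the EDA share. Of the FN1 expected counts, which are not scaled for transcript length, they held 26.1 to 82.0% and 32.3 to 71.9%.

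**Figure D5:**
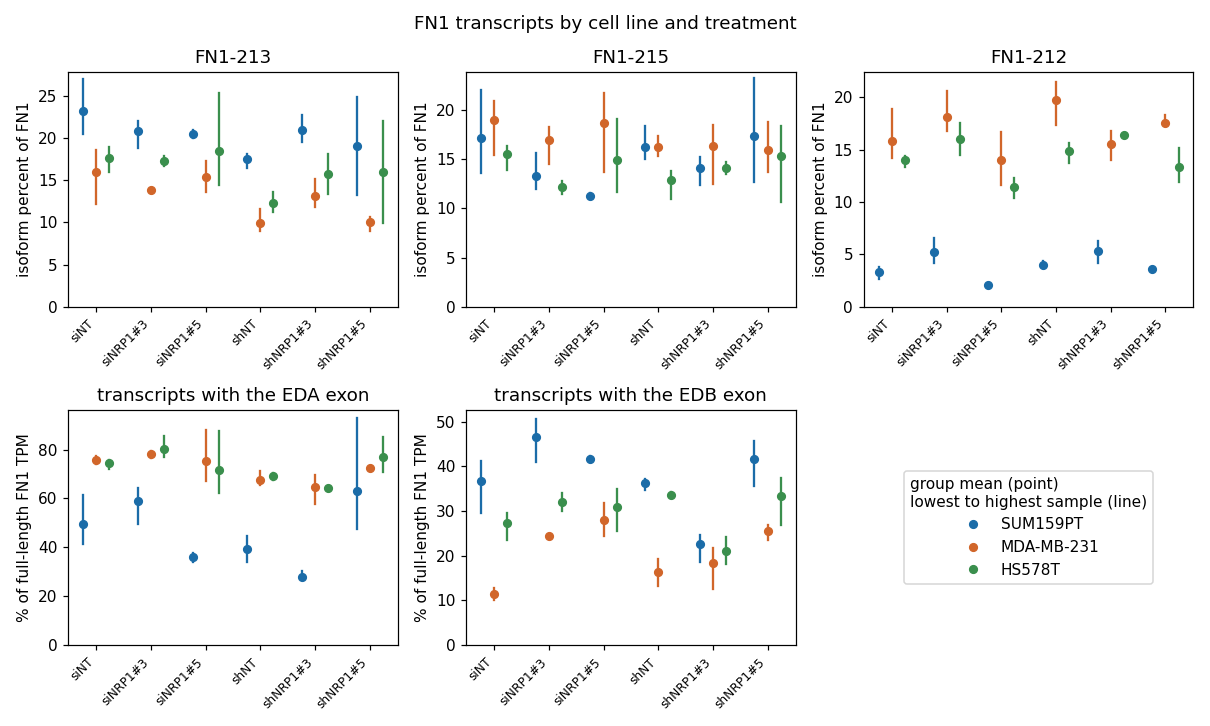
Share of FN1 by transcript in the 18 groups: isoform percent of FN1-213, FN1-215 and FN1-212, and percent of full-length FN1 TPM with the EDA or EDB exon. Points are group means and lines run from the lowest to the highest sample. The group means of FN1-212 and EDA are lower in SUM159PT than in the other lines, while single samples overlap for EDA.

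Related genes of the matrix were taken from 5 lists, 43 genes in all, of which 38 (SUM159PT), 33 (MDA-MB-231) and 39 (HS578T) were tested. Over the 4 knockdowns of MDA-MB-231, 6 of 132 tests were higher (4.55%, against 9.02% of the tests of all genes) and 34 lower (25.8%, against 10.8%). Of the 34, 13 were in siNRP1#3, 6 in siNRP1#5, 2 in shNRP1#3 and 13 in shNRP1#5. In SUM159PT, 10 of 152 tests were higher (6.58%, against 3.94% of all) and 17 lower (11.2%, against 4.54%), and 8 of the 10 were in shNRP1#5. In HS578T, 4 of 156 were higher (2.56%, against 3.18% of all) and 5 lower (3.21%, against 2.89%).

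Of the other lysyl oxidases (LOXL1, LOXL3 and LOXL4), LOXL4 fell in MDA-MB-231 in siNRP1#3 (log2 fold change -1.34, adjusted p = 0.00171) and shNRP1#5 (-2.01, adjusted p = 0.000138). None of these 3 passed in SUM159PT in any of 12 tests. BMP1, the protease that removes the propeptide of LOX and of fibrillar collagens, fell in MDA-MB-231 in the same comparisons as LOXL4 (-1.37, adjusted p = 0.000155, and -1.20, adjusted p = 0.00079). ADAMTS4, a protease of versican and aggrecan, rose in SUM159PT shNRP1#5 by 6.76 (adjusted p = 0.00529), from a mean of 0.0467 CPM in shNT to 5.02 CPM. In SUM159PT siNRP1#5 ADAMTS4 also passed (5.15, adjusted p = 0.0117), but on samples at 0.121 and 5.50 CPM.

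Among receptors, CD44, which binds hyaluronan, fell in SUM159PT in siNRP1#3 (-1.03, adjusted p = 0.0049) and siNRP1#5 (-1.62, adjusted p = 0.000722), as did CD47, the receptor of THBS1 (-0.73, adjusted p = 0.0388, and -1.10, adjusted p = 0.00648). Over the 28 tests of the 7 receptors in that line 0 were higher and 5 lower, and in MDA-MB-231 0 of 28 were higher and 10 lower, beside the shares of all genes given above. Here SDC4, a heparan sulphate co-receptor for fibronectin, fell in siNRP1#3 (-1.08, adjusted p = 0.000516) and shNRP1#5 (-0.72, adjusted p = 0.0135), and the integrin subunit ITGB3 in shNRP1#3 (-1.10, adjusted p = 0.0444) and shNRP1#5 (-0.96, adjusted p = 0.0261).

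Of the proteoglycans, HSPG2 (perlecan, of basement membranes) fell in MDA-MB-231 in siNRP1#3 (-0.68, adjusted p = 0.0197), siNRP1#5 (-1.11, adjusted p = 0.000513) and shNRP1#5 (-1.13, adjusted p = 0.00103). LUM (lumican, a regulator of collagen fibrils) fell in the same 3 comparisons (-1.46, -1.33 and -1.38) and rose in shNRP1#3 (1.76, adjusted p = 0.00541). Of the other glycoproteins, NID1, a linker of basement membranes, fell in SUM159PT with both reagents numbered #3 (-1.76, adjusted p = 0.0139, for the siRNA and -2.97, adjusted p = 0.0017, for the shRNA), and LTBP2, a microfibril protein, with both numbered #5 (-2.19, adjusted p = 0.00206, and -1.24, adjusted p = 0.0351). SPP1 (higher) and VTN (lower) also passed in 2 comparisons each in MDA-MB-231, on at most 56 and 55 expected counts.

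For each member the genes with the most similar profile were found by Pearson r of log2 CPM over the 52 samples after subtraction of each line's mean. The points share libraries and control groups, and r is given as a description. Pooled values can rest on some lines: LOX with TXLNB had 0.875 in SUM159PT and 0.089 in MDA-MB-231, VCAN with CADM1 -0.031 in HS578T and THBS2 with GRIK2 0.189 in HS578T. FN1 was closest to TPP1 (r = 0.832) and LRP1 (0.806), LOXL2 to NOMO2 (0.819) and LRP5 (0.801), and POSTN to COL1A2 (0.807) and COL1A1 (0.771). THBS1 was closest to TENM3 (0.783) and PTPN21 (0.761), FBN1 to BMPR2 (0.782) and HMCN1 (0.757), LOX to TXLNB (0.771) and HCN2 (0.757), and SPARC to GYPC (0.751) and NID2 (0.738). The values were lower for TNC with IFFO2 (0.725) and IL18BP (0.684), VCAN with GJC1 (0.702) and CADM1 (0.698), and THBS2 with GRIK2 (0.682) and PCDHB14 (0.669). Among the members themselves the highest values were those of FN1 with THBS2 (0.668) and FBN1 (0.656) and of POSTN with LOX (0.613), while FN1 and TNC had 0.047. The POSTN values include the MDA-MB-231 library with RNA of other lines.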

How the data were processed

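Stranded polyadenylated RNA libraries of 52 samples were sequenced. Per the labels and the study's methods, the authors checked reads with FastQC 0.11.9, trimmed them with Trim Galore 0.6.5, aligned them with STAR 2.7.2b to GRCh38 and quantified genes and transcripts with RSEM 1.3.3. The deposited expected counts are not scaled for depth. The deposited TPM are corrected for length and depth, and the deposited isoform percent is the part of a gene's TPM that falls to a transcript. Each column could be matched to a sample by name. RSEM divides reads shared by paralogues or transcripts, which limits transcript shares most.

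Expected counts per gene were rounded. One edgeR model per cell line (6 group means) and a model of all samples (18 group means) were fitted with filterByExpr, TMM and the quasi-likelihood test. All 10 members passed the filter in each model. Benjamini-Hochberg adjustment ran over all genes tested, with a threshold of 0.05, and errors are standard errors unless stated. CPM are TMM-scaled. The median log2 fold change of all genes was within 0.1 of 0 in each knockdown comparison. Isoform percent was compared by exact permutation within lines.

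Alternatives were DESeq2, its size factors in edgeR, no filter on low counts, limma on log2(TPM + 0.1), the replicate number as a block, subtraction of other-line RNA, the compared groups alone, a single kind of control, and leaving out each replicate. Same-numbered replicates deviated together (every pair's correlation above 0.1, with 3 pairs required) in 4 comparisons. They were siNRP1#3 and shNRP1#3 in SUM159PT, siNRP1#5 in MDA-MB-231 and shNRP1#5 in HS578T. In these the blocked value is given where it changes a call. SUM159PT siNRP1#5 (0.132 and 0.37) and HS578T shNRP1#3 (0.484 and 0.21) also had every correlation above 0.1, but on 2 pairs, and were not counted. No 2 replicates agreed within counting noise. Reads carried no molecular identifiers.

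RNA of another line was estimated from genes above 20 CPM in 1 line and below 0.5 CPM in the others. The members and the lists of related genes were chosen with earlier results of these data known. From each list and line, up to 2 genes were named, those with the largest mean change among genes past the threshold in at least 2 comparisons in the same direction. For each member the 2 genes with the highest r were named. Gene positions are from GENCODE 44, which may not be the release the authors used, and promoters from RefSeq. LOXL2, on chromosome 8, has no promoter shown. The analysis used edgeR 4.0.16, DESeq2 1.42.0 and limma 3.58.1 in R 4.3.3, and pandas 2.3.3, numpy 2.4.6 and matplotlib 3.10.9 in Python 3.11.15. The edgeR procedure was tested on simulated data.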

Additional observations from a re-analysis of the deposited data

Results flagged for a closer look

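Responses to the reagents of shared target sequence, siNRP1#5 and shNRP1#5, differed within a cell line by the interaction term of the edgeR quasi-likelihood test (Benjamini-Hochberg adjusted). Mean NRP1 also differed between siNRP1#5 and shNRP1#5, at 10.33 and 46.47 CPM in SUM159PT and 2.45 and 84.91 CPM in MDA-MB-231. In SUM159PT the siRNA change minus the shRNA change, on the log2 scale, was -1.81 for FN1, -1.44 for SPARC, -5.39 for POSTN and -3.14 for LOX. In MDA-MB-231 it was 1.92 for FN1 and 0.83 for TNC. FN1 thus had terms of opposite sign in these lines, and the difference between these terms was not tested. Mean FN1 was alike in siNRP1#5 and shNRP1#5 in SUM159PT (1315 and 1328 CPM) and in MDA-MB-231 (200.5 and 188 CPM). So was mean LOX in SUM159PT (5.25 and 5.21 CPM), and in each of these cases the non-targeting controls differed.

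Responses to the same reagent differed between the 3 cell lines by an F test for FBN1 with siNRP1#3 (adjusted p = 0.00875), FN1 with siNRP1#5 (adjusted p = 0.0069), FBN1 with siNRP1#5 (adjusted p = 0.00116) and LOX with shNRP1#5 (adjusted p = 0.000379), all by edgeR's quasi-likelihood test. Within single lines, FBN1 with siNRP1#3 passed in MDA-MB-231, and the other 3 passed in SUM159PT.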

How the results depend on the processing

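Of the calls on members, FN1, THBS2 and LOXL2 (MDA-MB-231 shNRP1#5), THBS1 and FBN1 (MDA-MB-231 siNRP1#3), TNC (MDA-MB-231 siNRP1#5), and POSTN and LOX (SUM159PT shNRP1#5) passed under all alternatives tried. Over all called results and alternatives, 651 values kept their direction and side of the threshold, 87 no longer passed and 1 reversed, the FBN1 difference of SUM159PT and MDA-MB-231 with shNT controls only (-0.117). Without the filter on low counts, members past the threshold rose from 5 to 13 in SUM159PT, 9 to 20 in MDA-MB-231, 2 to 8 in HS578T, 9 to 14 for shNT against siNT, 4 to 20 for the responses of the 3 lines and 6 to 12 for the #5 siRNA against the #5 shRNA. The cause was not tested. With other-line RNA subtracted HS578T had 1, and with DESeq2 the responses of the 3 lines had 9. Leaving out a replicate gave 4 to 7 in SUM159PT, 7 to 11 in MDA-MB-231, 0 to 2 in HS578T, 8 to 10 for shNT against siNT, 1 to 5 for the responses of the 3 lines, 3 to 7 for the #5 reagents and 0 for FN1 isoform percent, against 4 with all samples. For isoform percent a single result cannot pass with so few permutations, so the count of 0 says nothing of stability. Shares of expected counts gave 1 for FN1 isoform percent.

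With the replicate block the member counts were 7 in SUM159PT, 11 in MDA-MB-231, 3 in HS578T, 10 for shNT against siNT, 27 for the line pairs, 6 for the responses of the 3 lines, 7 for the #5 reagents and 0 for FN1 isoform percent, where the block leaves a smallest adjusted p of 0.0469 or 0.0938 for a single result. TNC in HS578T siNRP1#3, where the numbers do not pair the samples, also passed (0.0207). In the 4 comparisons whose numbers pair the samples the block changed no call other than those of TNC (SUM159PT siNRP1#3) and LOX (MDA-MB-231 siNRP1#5). Over the 34 pairs tested, correlations of deviations ran from -0.207 to 0.61 and 22 were above 0.1. The precision of THBS2, and of POSTN and VCAN in MDA-MB-231, was limited by few reads.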
